A study of Linum usitatissimum with 4 samples.

Results

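Methylation of single cytosines was examined near 6 flax genes that encode membrane transporters or a potassium channel: Lus10008263.g (described as lysine histidine transporter-like 5), Lus10001656.g (related to sugar transporter ERD6-like 4), Lus10007770.g (related to oligopeptide transporter 6), Lus10004518.g (in the subfamily of ABC transporter B family member 11), Lus10002529.g (related to potassium channel AKT1) and Lus10003402.g (related to potassium transporter 13). They were chosen by gene identifier from among 389 genes in the authors' deposited tables, with the differences already known, so every size and direction below is a description and none of them is a test of the choice. The 6 genes hold 17 of the 1894 listings of cytosines that differed from the control library.

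The plants were seedlings of Linum usitatissimum cultivar JRF-2, labelled as 21 days old and grown at 22 ± 2 °C under a day of 16 h light and 8 h dark. The control group had neither treatment. The heat group was kept at 40 ± 2 °C and 70% relative humidity for 4 h on each of 5 days and then returned to 22 °C. The 5-azacytidine group came from seeds soaked in a 1 mM solution for 24 h at 20 °C in the dark and was not heated. The last group had the seed soak and then the same heat. The labels do not give the length of the recovery or when within it shoot apices were taken. Each group is 1 whole-genome bisulfite library from the pooled apices of 10 seedlings, which leaves all values without an error between replicates, and all 3 comparisons share 1 control library.

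Each listing is a 1-bp site with the authors' methylation difference in percentage points, read as treated minus control. In methylation tables, H stands for A, C or T, so that CG and CHG are symmetric contexts and CHH is not. The tables give no read coverage and no methylation level per library, so the depth behind each site is unknown. Every listing met a q-value under 0.05 and an absolute difference over 5 points, and a site missing from a table is not shown to be unchanged. Positions are the deposited starts, whose genome build and counting base are not given in the sources used here. A site belongs to the gene with the nearest start in the deposited tables, whatever the distance.

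Membrane transporters set which nutrients a plant cell takes up, stores or releases. In Arabidopsis, lysine histidine transporters carry amino acids into cells, ERD6-like proteins are a family of sugar carriers of which several act at the vacuole membrane, and oligopeptide transporters move small peptides and related compounds. Potassium enters Arabidopsis roots through the channel AKT1 and through carriers of the KT/HAK/KUP family, to which potassium transporter 13 belongs, and some B-type ABC transporters of Arabidopsis move auxin. Plant CG methylation is copied after replication by methyltransferases that read the symmetric site. CHH methylation has to be set anew, in part by small RNAs, and 5-azacytidine traps methyltransferases once it is built into DNA.

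All 17 cytosines of the 6 genes lay upstream of the gene start, where 58.0% of the 1793 listings with usable gene columns lay upstream. Because 8 of the 17 belong to 1 gene, the count by gene is 6 of 6 with all sites upstream, beside 209 of 389 genes (53.7%). Their distances ran from 1755 to 15972 bp with a median of 9909 bp, against a median of 7059 bp over those 1793 listings. That median of 9909 bp is a site of Lus10001656.g, the gene with 8 of the 17. By gene, the nearest site lay 1755, 1984, 3952, 4233, 12823 or 14198 bp from the start. Of the 17 cytosines, 14 were CHH, 3 were CG and 0 were CHG, near the 84.3% of CHH among all 1894 listings. Lower values than control in the authors' deposited tables were found at 16 of the 17, near the 92.3% of all listings that were lower. No cytosine of the 6 genes was listed in more than 1 comparison, whereas 216 of all 1648 listed cytosines (13.1%) were.

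**Figure D1:**
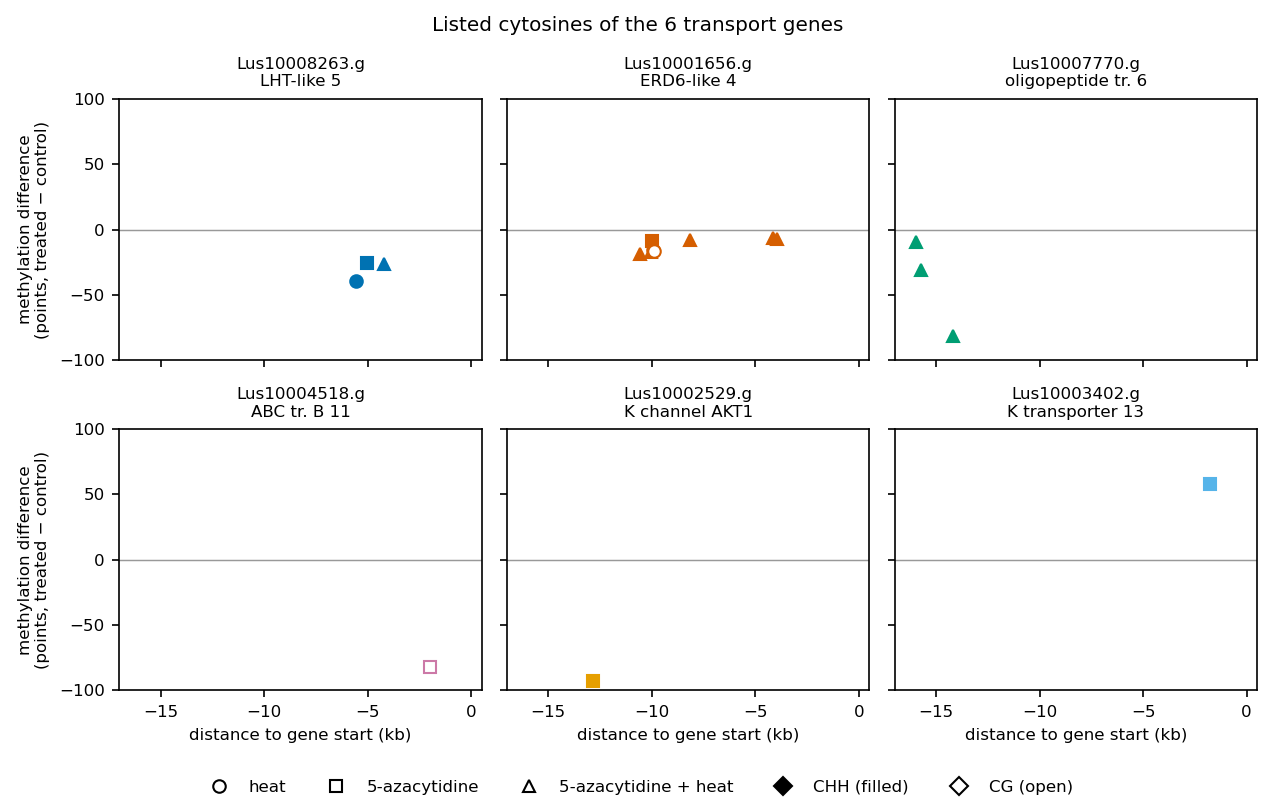
Methylation difference (percentage points, treated minus control, vertical axis) of each listed cytosine against its distance to the gene start (kb, horizontal axis) for the 6 genes. Circles, squares and triangles stand for heat, 5-azacytidine and 5-azacytidine plus heat, filled for CHH and open for CG; all 17 points lie upstream, and the point of Lus10003402.g at 57.7 points is the only one above 0.

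By comparison, the authors' deposited tables list 3 cytosines of these genes for heat, all 3 lower, where 78.8% of the 184 heat listings were lower. For 5-azacytidine they list 5, of which 4 were lower, where 90.8% of the 566 listings were lower. For 5-azacytidine plus heat they list 9, all 9 lower, where 95.3% of the 1144 listings were lower. The counts of lower sites are thus near the background of each comparison. Differences of at least 40 points made up 0 of 3, 3 of 5 and 1 of 9 of these sites in the authors' deposited tables, where the shares over all listings of each comparison were 5.98%, 7.24% and 5.68%. Together that makes 4 of 17, beside 6.18% of all 1894 listings. These 4 large differences belong to 4 different genes.

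**Figure D2:**
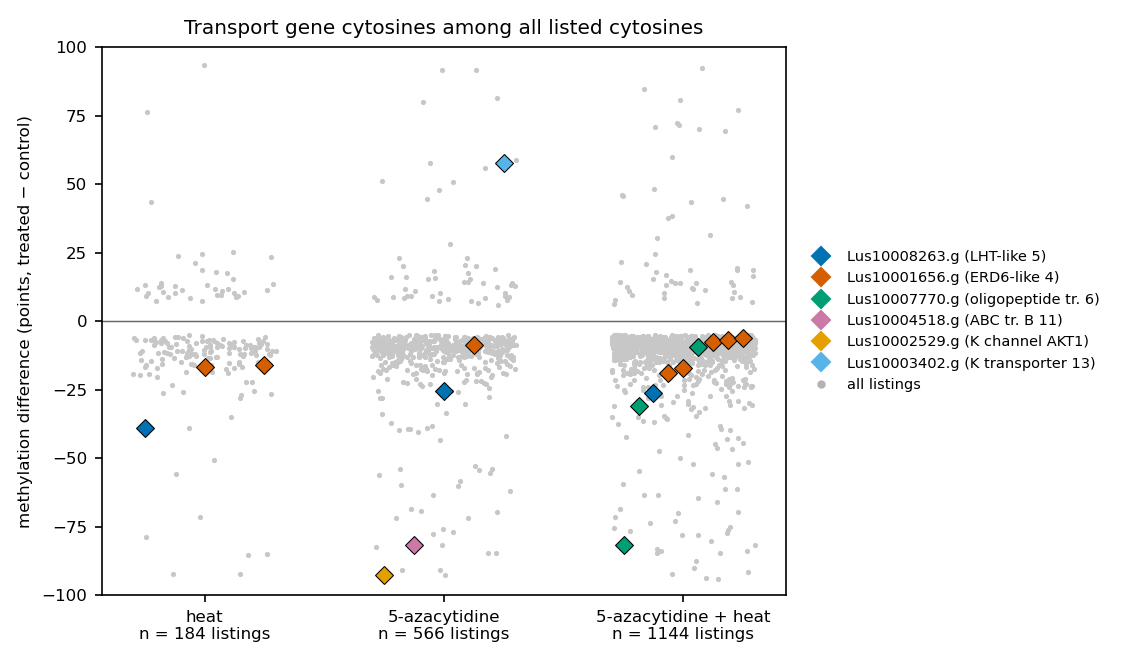
Methylation difference (percentage points, treated minus control, vertical axis) of all listings as grey points, spread sideways at random within each of the 3 comparisons with the control, and of the 6 genes as coloured diamonds ordered by value. The 9 sites of 5-azacytidine plus heat all lie below 0, and the 5 sites of 5-azacytidine run from -92.9 to 57.7 points.

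Among the amino acid, sugar and peptide carriers, Lus10008263.g, the lysine histidine transporter-like gene on Lu15, had 1 lower CHH cytosine in each of the 3 comparisons. In the authors' deposited table for heat, the site at 6199422, 5569 bp upstream, had -39.2 points (q = 0.0356). For 5-azacytidine, the site at 6198906, 5053 bp upstream, had -25.5 points (q = 0.0479) in the authors' deposited table. The site at 6198086, 4233 bp upstream, had -26.4 points (q = 0.0400) for 5-azacytidine plus heat in the authors' deposited table. The 3 cytosines are distinct and lie within 1336 bp, with gaps of 820 and 516 bp. No listed cytosine of another gene lay within 10000 bp of any of them, which held for every cytosine of the chosen genes. The share of all listed cytosines for which this holds was not counted, so it does not set these genes apart. The heat site was the fifth lowest of 123 in its table, and the 2 others ranked 33 of 455 and 69 of 1018 from the lowest. The authors' differences at these 3 sites cannot be compared site by site, since each comparison lists another cytosine. Of all 389 genes, 54 (13.9%) were listed in all 3 comparisons, and Lus10008263.g and Lus10001656.g are among them.

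Lus10001656.g, the ERD6-like sugar transporter gene on Lu8, had 8 cytosines over 6605 bp, more than any other of the 6 genes, and all 8 were lower. Of these, 5 lay within 648 bp, between 9035629 and 9036277, at 9909 to 10557 bp upstream, and came from all 3 comparisons. Heat had the CG sites at 9036225 and 9036277, 52 bp apart, with -16.0 points (q = 0.0130) and -16.7 points (q = 0.0260) in the authors' deposited table. The CHH site at 9036189, which is 36 bp from the nearer of these, had -8.70 points (q = 0.0234) in the authors' deposited table for 5-azacytidine. For 5-azacytidine plus heat, the authors' deposited table gives -18.9 points (q = 0.0305) and -17.1 points (q = 0.00924) at the CHH sites 9035629 and 9036139. The stretch thus held lower sites in both the CG and the CHH context. In this stretch each comparison lists other cytosines, and the CG sites were listed only for heat. Such closeness is common in the lists. Another listed cytosine lay within 100 bp of 4 of the 17 cytosines (23.5%), against 1004 of all 1648 (60.9%).

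The remaining 3 CHH sites of Lus10001656.g, all for 5-azacytidine plus heat, lay closer to the gene, at 8181, 4148 and 3952 bp upstream. Their differences in the authors' deposited table were smaller, at -7.79, -6.20 and -7.03 points (q = 0.0486, 0.0303 and 0.0263). The first of these has the highest q-value of the 17 cytosines and the second the smallest difference, so both sit near the limits of the lists. All 5 sites of the 648-bp stretch had larger differences than these 3, with medians of -16.7 and -7.03 points in the authors' deposited tables. The 5 sites mix comparisons and contexts, so these medians do not compare like with like. Only the sites at -18.9 and -17.1 points in the authors' deposited table share the comparison and context of the 3.

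Lus10007770.g, the oligopeptide transporter gene on Lu1, had 3 lower CHH cytosines, all listed for 5-azacytidine plus heat and 0 for the other comparisons. According to the authors' deposited table, the site at 23648345 had -9.56 points (q = 0.0277) and the site 242 bp further along, at 23648587, had -31.1 points (q = 0.0218). The third, at 23650119 and 1532 bp beyond, had -81.8 points (q = 0.0418) in the authors' deposited table, the ninth lowest of 1018. The 3 sites lay 15972, 15730 and 14198 bp upstream, farther from a start than the other 14 cytosines. Sites within 1774 bp in 1 comparison thus ran from -9.56 to -81.8 points in the authors' deposited table, with no replicate against which to read that spread.

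The ABC transporter gene Lus10004518.g on Lu3 had a single listed cytosine, in the CG context at 20122101, 1984 bp upstream of the start. Its difference in the authors' deposited table for 5-azacytidine was -81.8 points (q = 0.0319), the second lowest of the 64 CG sites. By q-value the same site ranked 42 of 64. The nearest other listed cytosine of any comparison was 946342 bp away.

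The potassium genes among those chosen had 1 listed cytosine each, for 5-azacytidine alone, and these sites differed from control in opposite directions. Lus10002529.g, the AKT1-related channel gene on Lu6, had a CHH site at 18062121, 12823 bp upstream, with -92.9 points (q = 0.0155) in the authors' deposited table. That was the lowest of the 455 CHH sites and of all 566 listings of the comparison. Lus10003402.g, the potassium transporter 13-related gene on Lu1, had a CHH site at 24657562, 1755 bp upstream and the closest to a start among the 17. Its difference in the authors' deposited table was 57.7 points (q = 0.0299), the second highest of the 455 CHH sites, of which 30 were higher than control. Higher sites are less rare among large differences. Of all 113 listed cytosines with differences of at least 40 points, 29 (25.7%) were higher, beside 1 of 4 for the chosen genes. The nearest other listed cytosines were 3704713 and 39725 bp away for these channel and carrier genes. Lists of heat and of 5-azacytidine plus heat hold 0 sites of either gene, which says that no site passed the authors' limits there, and no test between comparisons was made.

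The 4 cytosines with differences of at least 40 points had q-values of 0.0155 to 0.0418, and the other 13 had 0.00924 to 0.0486, so the larger differences did not come with smaller q-values. Over all listings in the authors' deposited tables the larger differences had the higher q-values, with a median q-value of 0.0306 at 117 listings of at least 40 points and 0.0178 at 1777 smaller ones. Of the 17 cytosines 0 had a q-value below 0.001, against 12.1% of all listings. Of the 4 large differences, 3 had no other listed cytosine within 10000 bp, as did 96 of all 113 cytosines of that size (85.0%). Among smaller differences, 0 of 13 cytosines of these genes and 97 of 1535 in all (6.32%) were isolated in this way.

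**Figure D3:**
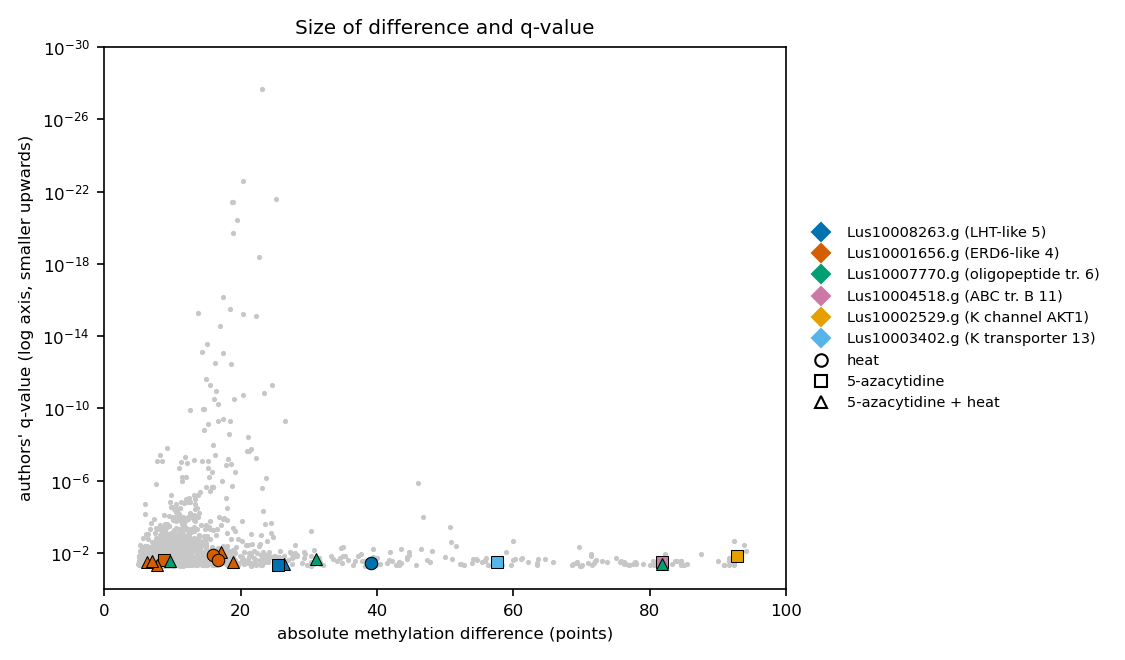
Absolute methylation difference (percentage points, horizontal axis) against the authors' q-value (log axis, smaller values upwards) for all 1894 listings in grey and the 6 genes in colour, with the symbol giving the comparison. The 17 coloured points all lie between q-values of 0.00924 and 0.0486 at every size of difference.

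The deposited descriptions open with a count of flax genes under the same family name, which is 2 for Lus10007770.g and Lus10003402.g, 3 for Lus10008263.g, 4 for Lus10001656.g, 8 for Lus10002529.g and 13 for Lus10004518.g. How reads that match several copies were treated is not stated in the labels. For the 3 genes with several sites, positions and distances imply 1 gene start each, so these rows go together. On the implied direction, Lus10001656.g and Lus10007770.g run with rising coordinates and Lus10008263.g against them. The strand column has both signs for Lus10001656.g and for Lus10008263.g and was not used.

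Family descriptions matched 8 other transport genes with 29 listings. A match on words does not show a membrane protein. For Lus10020906.g, with 4 listings, the description is a copper transport protein related to ATOX1. All 29 listings were lower in the authors' deposited tables, where 92.3% of all listings were lower. They fell into 2 listings near 2 genes for heat, 11 near 4 genes for 5-azacytidine and 16 near 7 genes for 5-azacytidine plus heat. Their differences ran from -36.5 to -5.38 points with a median size of 9.98 points, against 18.9 points for the 17 cytosines and 10.0 points over all listings. None of the 8 genes had a difference of at least 40 points, and 12 of the 29 listings were upstream of the start, where 58.0% of listings with usable gene columns were. Since the 6 genes were chosen with their sizes in view, these medians describe the choice and do not set the 6 genes apart.

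Of the 8 other transport genes, 4 were listed in 2 or more comparisons at the same cytosine. How many of all 389 genes have such a cytosine was not counted. By cytosine, 216 of all 1648 (13.1%) were listed in 2 or more comparisons. None of the 6 genes had one, but 3 of the 6 have a single listing, so this does not set them apart. At Lus10004317.g, related to the metal carrier NRAMP2, a CHH site 2959 bp upstream had -15.9 points for heat and -14.7 points for 5-azacytidine plus heat in the authors' deposited tables. At Lus10009598.g, a zinc transporter gene of the cation efflux family, a CHH site 1644 bp upstream had -22.9 points for 5-azacytidine and -23.3 points for 5-azacytidine plus heat in the authors' deposited tables. Another potassium channel gene, Lus10035498.g, had -9.03 and -9.98 points at a CHH cytosine lying 6367 bp past its start for the same comparisons in the authors' deposited tables. At Lus10004896.g, described as ABC transporter C family member 8, a CHH site 12779 bp downstream of the start had -7.42, -9.21 and -9.79 points for heat, 5-azacytidine and both together in the authors' deposited tables. Because these comparisons share the control library, such pairs are not independent of each other.

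**Figure D4:**
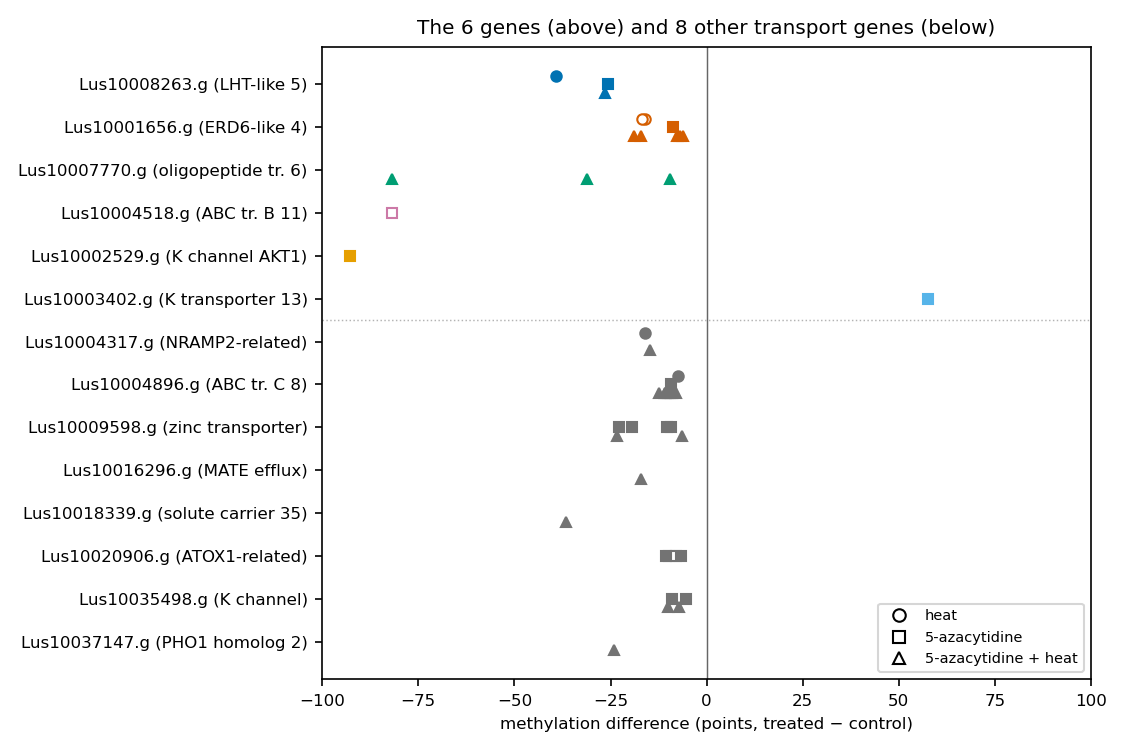
Methylation difference (percentage points, treated minus control, horizontal axis) of every listed cytosine of the 6 genes (coloured, upper rows) and of 8 other transport genes (grey, lower rows), with circles for heat, squares for 5-azacytidine, triangles for 5-azacytidine plus heat and open symbols for CG. Points of the 8 genes lie between -36.5 and -5.38 points, while those of the 6 genes span -92.9 to 57.7 points.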

How the data were processed

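Whole-genome bisulfite libraries of shoot apices, 1 per group, were processed with tools that the submitters' processing notes name without version or role: MethylDackel, methylKit, BWA, FastQC and Trimmomatic. For genome build and parameters, nothing was stated in the labels. There are 9 tables deposited by the authors, 3 comparisons with the control in 3 contexts. Per the file headers these hold p-values and q-values, which are the authors' own, and a methylation difference, a score in percentage points whose sign was read as treated minus control, the methylKit convention. With the opposite sign, "higher" and "lower" would swap throughout. Distances to the gene start are a deposited score in bp, negative upstream.

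Listings were selected by Lus identifier with Python 3.11.15 and pandas 2.3.3, and counted, ranked and measured for gaps; the code was tested on simulated data. No test across samples was possible. The members and word lists were chosen with earlier results of these data known. Every listing of the 6 genes is named, and other transport genes (found by words such as transport, channel or efflux in the family description) are named where listed in 2 or more comparisons or at 40 points or more. Gene columns of the table for 5-azacytidine plus heat in the CG context were not used, because its 2 rows naming Lus10001656.g lie on Lu15 with distances that the heat CG table gives for sites on Lu8. The rows naming other genes also repeat distances of the heat CG table, and the remaining rows name no gene. The CG sites of that table nearest to the 6 genes lie 186827 bp or more away.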

Additional observations from a re-analysis of the deposited data

How the results depend on the processing

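With a q-value below 0.001, 0 of the 17 sites were left in any of the 3 comparisons, lower ones included, beside 12.1% of all listings. With differences of at least 25 points, 1 heat site and 3 sites of 5-azacytidine plus heat were left, all lower, while 5-azacytidine had 4 with 3 lower. These make 8 of 17, beside 9.77% of all listings, for genes chosen with their sizes known. Within 10000 bp of the gene start, 5-azacytidine plus heat had 4 of its 9 sites, all lower, heat had 3 and 5-azacytidine 4 with 3 lower. These make 11 of 17 (64.7%), near the 61.2% of all 1793 listings with usable gene columns. Joining cytosines within 100 bp gave 2, 5 and 9 units for heat, 5-azacytidine and both together. Using the gene columns of the set-aside CG table gave 11 sites, 10 of them lower, for 5-azacytidine plus heat. The added rows lie on another chromosome than Lus10001656.g, with its heat CG distances repeated. That count therefore cannot show how the result depends on the processing. No paired analysis was possible because each group is 1 library and no result comes from a test. Replicates could not be left out for the same reason. The read depth is unknown, so how much of each list depends on depth was not tested.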

Other observations

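In the authors' deposited table for 5-azacytidine plus heat in the CG context, the 2 rows that name Lus10001656.g lie on Lu15 at 10756280 and 10756361, with -5.93 points (q = 0.0145) and 46.1 points (q = 1.34e-06). Their distances of 9961 and 9909 bp upstream are those of the heat CG sites of Lus10001656.g on Lu8. Which gene start is nearest to these Lu15 sites was not analysed here. Neither site is shown to belong to Lus10001656.g, so their values are not set beside those of the 17 cytosines described above.

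Protein hits given as free text also name transporters, but the text varies along a gene. At Lus10006013.g on Lu5, 10 CHH listings are described as oligopeptide transporter 6-like, 1 as potassium transporter 7 and 26 as berberine bridge enzyme-like 18 in the authors' deposited tables. The 10 sites lay 14783 to 23459 bp downstream of the start and had -13.2 to -5.87 points in the authors' deposited table, all lower. These sites were not counted as transport genes.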
